A study of Homo sapiens with 6 samples.

Results

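The genes described here encode subunits of SWI/SNF, the BAF family of ATP-dependent chromatin remodelling complexes, and were chosen by name: SMARCA2, SMARCA4, SMARCC1, SMARCC2, SMARCD1, SMARCD2, SMARCD3, ARID1A, ARID1B and ARID2. Of the 10 listed genes, 9 had a probe set that names that gene alone, among 18417 genes measured in this way. SMARCD2 lay only on a probe set that carries several gene symbols, so it has no value here. Each of the 9 measured genes had exactly 1 such probe set.

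Total RNA was hybridised to Affymetrix arrays, 1 array per sample, in 3 groups of 2 arrays, all derived from the established line WA09 of human embryonic stem cells. The hESC group was undifferentiated and kept in StemPro defined medium. The INM group, ISL1+ nascent mesoderm, had received 2 growth factors in that medium, Wnt3a at 25 ng/ml together with BMP4 at 50 ng/ml, for 4 days, and the SMC group, smooth muscle cells, for 21 days. All groups therefore share 1 cell line, and no label states that replicates came from separate cultures. The p-values given here therefore reflect the spread between arrays alone, and that spread may be technical. The series is titled as a study of nucleosome positions in differentiating stem cells, and the question asked of the subunits is which of them changed at each stage.

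SWI/SNF complexes use the energy of ATP to slide or evict nucleosomes. Each complex is built around a single ATPase, either SMARCA2 (also called BRM) or SMARCA4 (BRG1), on a scaffold of SMARCC and SMARCD subunits. An ARID subunit decides the type of complex: ARID1A or ARID1B marks canonical BAF, and ARID2 marks PBAF, which also holds PBRM1, BRD7 and PHF10. Pluripotent cells are known for a form of the complex built on SMARCA4 and SMARCC1, and SMARCD3 is known for its part in heart and muscle development.

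In these cells, SMARCA2 was the listed subunit with the largest rise by day 4, SMARCD3 was higher and SMARCC1 and SMARCD1 were lower at day 21, and ARID2 was higher at day 4 and lower at day 21. A gene was called changed at a Benjamini-Hochberg adjusted p under 0.05 over all 18417 genes in limma's moderated test. In INM versus hESC, where 33.8% of all genes were called, 3 of 9 subunits were called higher, against 18.9% of all genes, and 0 of 9 were called lower by limma, where 14.8% of all genes were (0 of 9 lower at an unadjusted p under 0.05). In SMC versus INM, where 21.0% of all genes were called, 1 of 9 was called higher and 4 of 9 lower, against 9.94% and 11.1% of all genes. In SMC versus hESC, where 37.2% of all genes were called, 2 of 9 were called higher and 3 of 9 lower, against 19.7% and 17.6% of all genes. A moderated F test over the 3 groups called 6 of 9 subunits, where it called 45.5% of all genes. These comparisons share arrays, so their results are not independent of each other. The median log2 change of the 9 subunits was 0.32 for the step from hESC to INM, -0.57 for that from INM to SMC and -0.14 over both steps, and the same medians over all genes were -0.03, -0.02 and -0.05.

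Scaling moves these values as a whole. Median centring of the arrays shifted the median change of all genes in INM versus hESC to 0.16 and raised the share of higher calls among all calls from 56.1% to 76.2% (66.1% with quantile normalization). In SMC versus hESC median centring shifted that median to 0.08 and the share from 52.9% to 66.5%. The replicates of INM differed more than those of other groups, with an SD pooled over all genes of 0.313, against 0.149 for hESC and 0.132 for SMC. The 12 dividing-cell markers were higher in INM replicate 2 than in replicate 1 in 12 of 12 cases, with a median difference of 1.14 and a mean log2 level of 9.83 and 9.92 on the hESC arrays, 9.02 and 10.13 on the INM arrays and 8.87 and 8.84 on the SMC arrays. Lineage markers also differed between the INM arrays, with replicate 2 higher in 8 of 10 mesoderm, 3 of 7 endothelial and 2 of 7 neural markers. In INM replicates 1 and 2, STMN2 read 11.81 and 8.95, TEK 7.97 and 10.52, and KDR 9.09 and 11.47. The endothelial markers CDH5 (6.66 and 5.90), PECAM1 (5.66 and 5.32), ERG and VWF were instead lower in replicate 2. The part of these differences in the values of the subunits was not tested. Among stage markers, the pluripotency factor SOX2 read 11.44 and 11.47 on the hESC arrays, 5.63 and 5.81 on the INM arrays and 5.76 and 5.61 on the SMC arrays, and the mesoderm factor ISL1 read 5.54 and 5.28, 9.46 and 9.55, and 6.41 and 6.31. The smooth muscle actin gene ACTA2 read 6.44 and 6.41 on the hESC arrays, 11.97 and 10.85 on the INM arrays and 13.09 and 13.03 on the SMC arrays, so it was high already in INM. The smooth muscle myosin gene MYH11 read 5.59 and 5.43 in SMC, close to the median of unnamed probe sets on those arrays (5.34 and 5.31), and was not called in any comparison. In INM versus hESC 8 of 12 pluripotency markers were called lower, and LIN28B (0.68), SALL4 (-0.29), ZFP42 (-0.54) and LIN28A (-1.02) were not called. Over the same step 9 of 10 mesoderm markers were called higher, 8 of 13 smooth muscle markers higher and 1 lower, and 2 of 7 neural markers higher, among them MAP2 at 5.10-fold, with 1 of 7 endothelial markers higher and 1 of 7 cardiomyocyte markers higher and 1 lower. In SMC versus hESC 12 of 12 pluripotency markers were called lower, and 9 of 10 mesoderm and 10 of 13 smooth muscle markers higher. Further, 5 of 12 dividing-cell markers were called lower and 3 of 7 endothelial markers higher. Of the rest, 1 of 7 neural markers was called higher, and 2 of 7 cardiomyocyte and 1 of 7 skeletal muscle markers lower.

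**Figure D1:**
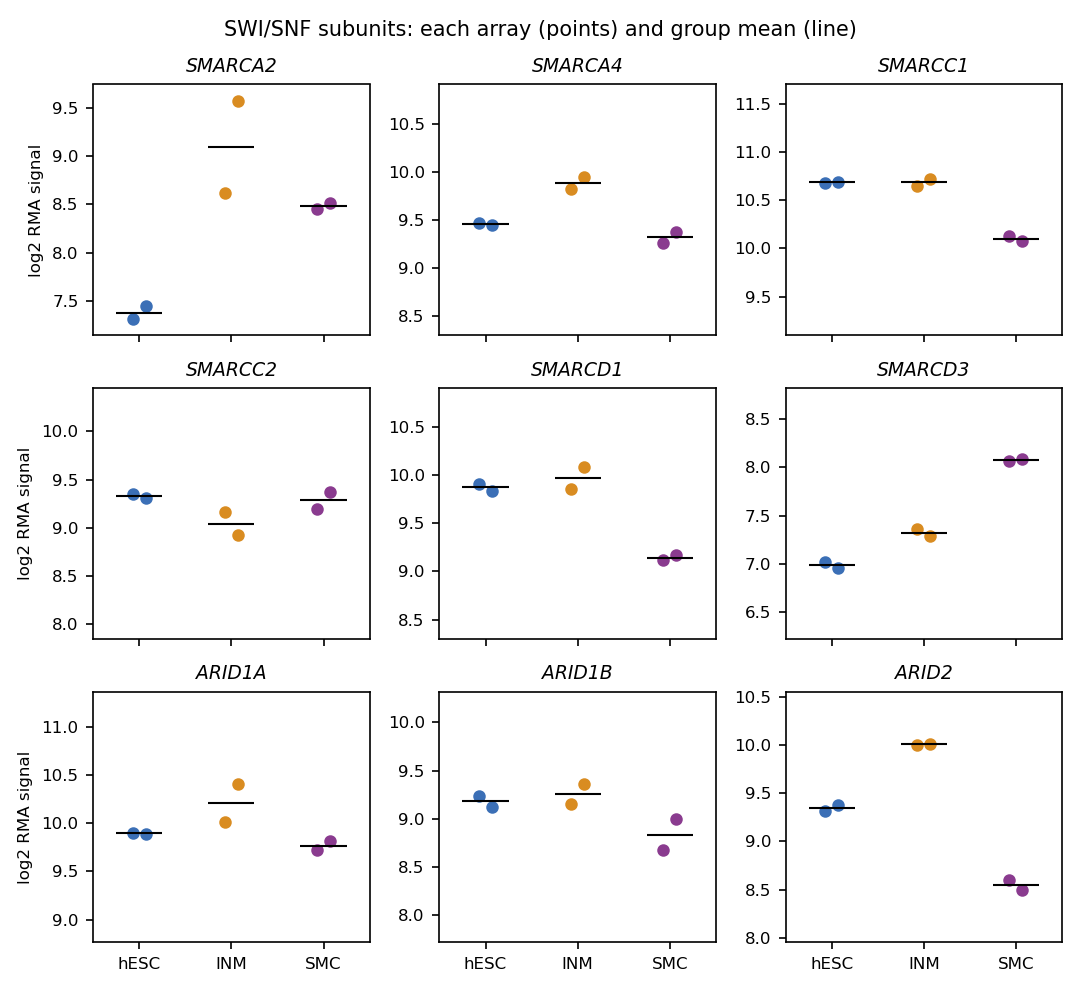
Log2 RMA signal (y axis) of the 9 measured SWI/SNF subunits in hESC, INM and SMC (x axis); points are single arrays, lines are group means, and every panel spans the same log2 range. SMARCA2 and ARID2 have their highest mean in INM, SMARCD3 has group means from 6.99 in hESC to 8.08 in SMC, and SMARCC1 and SMARCD1 are lowest in SMC.

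The promoters of the subunit pairs that moved most unequally, the ATPases SMARCA2 and SMARCA4 and the scaffold subunits SMARCD3 and SMARCD1, are shown so that the regulatory sequence stands beside the values. Each is the 250 bases before the RefSeq gene start lying furthest upstream (GRCh38.p14), 5′ to 3′ on the strand of the gene, with the GC box GGGCGG and its complement CCGCCC in capitals. RefSeq start entries were found for 7 of the 10 listed genes. SMARCA2 has 4 starts in that table, SMARCD3 has 3, SMARCA4 has 2 and SMARCD1 has 1, and the array values do not tell which start was used.
SMARCA2 (chr9:2015097-2015346, plus strand): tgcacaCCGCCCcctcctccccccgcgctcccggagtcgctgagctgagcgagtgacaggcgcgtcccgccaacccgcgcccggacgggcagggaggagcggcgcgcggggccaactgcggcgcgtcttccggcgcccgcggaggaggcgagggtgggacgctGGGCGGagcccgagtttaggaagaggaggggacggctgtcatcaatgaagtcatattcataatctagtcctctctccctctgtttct
SMARCA4 (chr19:10960780-10961029, plus strand): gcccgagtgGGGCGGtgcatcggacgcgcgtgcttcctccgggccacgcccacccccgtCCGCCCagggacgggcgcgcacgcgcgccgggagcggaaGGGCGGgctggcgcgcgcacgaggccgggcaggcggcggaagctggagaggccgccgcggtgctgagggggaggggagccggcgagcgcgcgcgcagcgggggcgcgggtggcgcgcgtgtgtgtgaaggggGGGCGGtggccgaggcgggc
SMARCD3 (chr7:151277150-151277399, minus strand): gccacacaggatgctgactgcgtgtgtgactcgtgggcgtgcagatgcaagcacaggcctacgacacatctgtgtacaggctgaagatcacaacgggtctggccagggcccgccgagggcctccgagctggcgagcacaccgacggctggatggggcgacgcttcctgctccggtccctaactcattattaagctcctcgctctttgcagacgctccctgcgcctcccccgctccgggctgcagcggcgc
SMARCD1 (chr12:50085092-50085341, plus strand): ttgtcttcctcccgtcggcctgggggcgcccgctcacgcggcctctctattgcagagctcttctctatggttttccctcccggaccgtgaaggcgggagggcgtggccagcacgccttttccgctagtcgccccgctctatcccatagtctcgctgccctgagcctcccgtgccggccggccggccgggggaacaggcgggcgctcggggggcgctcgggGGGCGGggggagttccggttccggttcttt

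All 4 windows were rich in CpG, the dinucleotide that carries DNA methylation. The SMARCA4 window held 44 CpG and was 82.4% G and C, the SMARCA2 window 29 and 68.8%, the SMARCD1 window 28 and 70.4%, and the SMARCD3 window 21 and 65.2%. Over all 35116 starts in the table the median was 11 CpG and 58.0% G and C. On both strands together the SMARCA4 window held 4 GC boxes, the SMARCA2 window 2, the SMARCD1 window 1 and the SMARCD3 window 0, and 42.6% of all windows of this length held at least 1. A match is a description of the letters only.

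Both ATPase genes were called higher in INM than in hESC, and the change of SMARCA2 was the larger. SMARCA2 (probe set 8154059) read 7.31 and 7.45 on the hESC arrays, 8.62 and 9.57 on the INM arrays and 8.45 and 8.51 on the SMC arrays, on the log2 scale. The hESC arrays lay below all others, and the INM arrays lay above the SMC arrays with a gap of 0.96 between themselves. SMARCA2 was 3.29-fold higher in INM than in hESC (log2 change 1.72, SE 0.29, adjusted p = 0.00548) and 2.15-fold higher in SMC than in hESC (1.10, SE 0.29, adjusted p = 0.0241). From INM to SMC its change of -0.61 (SE 0.29) was not called (adjusted p = 0.185). That last value rests on the INM arrays: without INM replicate 1 it was -1.09 and called (adjusted p = 5.8e-04), and without INM replicate 2 it was -0.13. The rise to INM was called in 12 of the 13 alternatives and not without hESC replicate 1. The rise to SMC was called in 9 of 13 and not without either hESC array or either SMC array. Its changes over the 13 lay between 1.04 and 1.24. The SE of SMARCA2 is drawn from the spread of all 3 groups, where its SD was 0.09 in hESC, 0.68 in INM and 0.04 in SMC.

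SMARCA4 (probe set 8025788), the ATPase of the pluripotent form of the complex, read 9.46 and 9.45 on the hESC arrays, 9.82 and 9.95 on the INM arrays and 9.26 and 9.38 on the SMC arrays. Its INM arrays lay above both other groups, and its SMC arrays lay just below those of hESC. It rose 1.34-fold from hESC to INM (0.43, SE 0.12, adjusted p = 0.0304) and fell from INM to SMC by 0.57 on the log2 scale (SE 0.12, adjusted p = 0.0173). SMC and hESC differed by -0.14 (SE 0.12, adjusted p = 0.392), which was not called. The rise of SMARCA4 was close to the threshold: its adjusted p was 0.0590 with quantile normalization, 0.0666 on the 4 arrays of hESC and INM alone or without either SMC array, and between 0.0520 and 0.126 without hESC replicate 1, hESC replicate 2 or INM replicate 2. The fall of SMARCA4 to SMC was not called without SMC replicate 1 (-0.51, adjusted p = 0.134) or SMC replicate 2 (-0.62, adjusted p = 0.0907).

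SMARCC1 and SMARCC2 are the paired scaffold subunits on which the rest of the complex assembles. SMARCC1 (probe set 8086810) read 10.68 and 10.69 on the hESC arrays, 10.65 and 10.72 on the INM arrays and 10.13 and 10.07 on the SMC arrays. The hESC values lay between the INM values, and both SMC arrays lay below all others. SMARCC1 fell by 0.59 on the log2 scale from INM to SMC (SE 0.11, adjusted p = 0.0117) and by 0.59 from hESC to SMC (SE 0.11, adjusted p = 0.00603), a 1.5-fold difference. Its INM versus hESC change was 1e-04 (SE 0.11, adjusted p = 0.9996). The step from INM was not called without SMC replicate 1 (adjusted p = 0.0839) or SMC replicate 2 (0.105), and that from hESC was not called without SMC replicate 2 (adjusted p = 0.0570).

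SMARCC2 (probe set 7963988) read 9.35 and 9.31 on the hESC arrays, 9.16 and 8.93 on the INM arrays and 9.20 and 9.37 on the SMC arrays. The SMC arrays spanned those of hESC, and the INM arrays were the lowest. None of its 3 changes was called: -0.29 (SE 0.13, adjusted p = 0.145) from hESC to INM, 0.24 (SE 0.13, adjusted p = 0.255) from INM to SMC and -0.05 (SE 0.13, adjusted p = 0.818) from hESC to SMC. Without INM replicate 1 the first of these was -0.40 and called lower (adjusted p = 0.0438).

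The SMARCD subunits link the complex to transcription factors, and 2 of the 3 were measured. SMARCD1 (probe set 7955331) read 9.91 and 9.83 on the hESC arrays, 9.86 and 10.09 on the INM arrays and 9.12 and 9.17 on the SMC arrays. The hESC and INM values overlapped, and the SMC values lay below both. SMARCD1 fell by 0.83 from INM to SMC (SE 0.12, adjusted p = 0.00578) and by 0.73 from hESC to SMC (SE 0.12, adjusted p = 0.00459), both on the log2 scale. Between INM and hESC it differed by 0.10 (SE 0.12, adjusted p = 0.562). The call from hESC to SMC held in all 13 alternatives, and that from INM to SMC ended without SMC replicate 1 (adjusted p = 0.0624) or SMC replicate 2 (0.0560).

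SMARCD3 (probe set 8143919), the paralog tied to heart and muscle genes, read 7.02 and 6.95 on the hESC arrays, 7.36 and 7.29 on the INM arrays and 8.07 and 8.09 on the SMC arrays. The 3 groups did not overlap, as held for 62.0% to 75.3% of all genes in a single comparison, and their order was hESC, INM, SMC. SMARCD3 was 2.13-fold higher in SMC than in hESC (1.09, SE 0.11, adjusted p = 5.1e-04) and 1.69-fold higher in SMC than in INM (0.76, SE 0.11, adjusted p = 0.00473). The smaller step from hESC to INM, 0.33 (SE 0.11, adjusted p = 0.0539), was not called. It was called with median centring (0.52, adjusted p = 0.00994), quantile normalization (0.44, adjusted p = 0.0211), the low-signal filter (adjusted p = 0.0473) and without INM replicate 2 (adjusted p = 0.0446). The rise from INM to SMC had adjusted p of 0.0524 and 0.0571 without SMC replicate 1 and SMC replicate 2, while the rise from hESC to SMC was called in all 13 alternatives.

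Among the ARID genes, whose products set the type of complex, ARID2 changed and ARID1A and ARID1B were not called. ARID2 (probe set 7955019), the defining subunit of PBAF, read 9.32 and 9.38 on the hESC arrays, 10.0034 and 10.01 on the INM arrays and 8.60 and 8.49 on the SMC arrays. The groups did not overlap, as held for 62.0% to 75.3% of all genes in a single comparison. INM was highest, hESC in the middle and SMC lowest. ARID2 was 1.58-fold higher in INM than in hESC (0.66, SE 0.11, adjusted p = 0.00548), fell by 1.46 on the log2 scale from INM to SMC (SE 0.11, adjusted p = 4.6e-04) and lay 0.80 lower in SMC than in hESC, a change of -0.80 (SE 0.11, adjusted p = 0.00192). All 3 calls of ARID2 held in each of the 13 alternatives, and it was the only listed subunit of which this was true in every comparison.

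ARID1A (probe set 7899220), the common ARID subunit of canonical BAF, read 9.90 and 9.89 on the hESC arrays, 10.02 and 10.41 on the INM arrays and 9.72 and 9.82 on the SMC arrays. Its INM arrays were the highest and lay 0.39 apart. The changes of ARID1A were 0.32 (SE 0.15, adjusted p = 0.155), -0.45 (SE 0.15, adjusted p = 0.0877) and -0.13 (SE 0.15, adjusted p = 0.555) in the same order of comparisons. Without INM replicate 1 the rise was 0.52 (adjusted p = 0.0129) and the fall -0.64 (adjusted p = 0.00588), both called, and the rise was also called with median centring (0.51, adjusted p = 0.0481).

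ARID1B (probe set 8122971), the alternative of ARID1A, read 9.23 and 9.13 on the hESC arrays, 9.16 and 9.36 on the INM arrays and 8.67 and 9.0 on the SMC arrays. The hESC and INM values overlapped, and the SMC values were the lowest, with 0.32 between them. Its changes were 0.08 (SE 0.15, adjusted p = 0.717), -0.42 (SE 0.15, adjusted p = 0.0992) and -0.34 (SE 0.15, adjusted p = 0.124), and the second was called without INM replicate 1 (-0.53, adjusted p = 0.0406). Because the RNA came from bulk cultures, fewer cells of a type and less RNA per cell cannot be told apart for any of these genes.

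**Figure D2:**
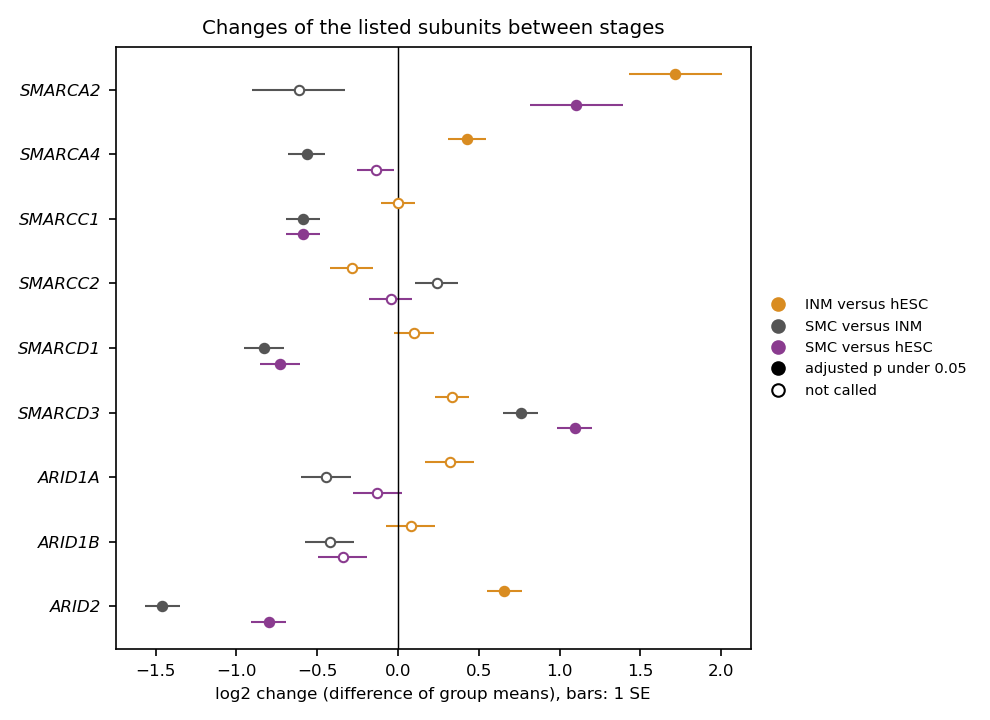
Log2 change with 1 SE (x axis) of each listed subunit (y axis) in the 3 comparisons; filled points passed an adjusted p of 0.05 in limma. ARID2 is called in all 3 comparisons, at 0.66, -1.46 and -0.80, while SMARCC2, ARID1A and ARID1B are called in none.

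By stage, INM had the highest mean in 7 of the 9 subunits and SMC the lowest in 6 of 9. Over all genes INM was highest in 29.8% and SMC lowest in 35.8%. Of the other 21 subunits INM was highest in 61.9%, SMC lowest in 42.9% and hESC lowest in 47.6%. The high share of INM was thus not particular to the 9 listed subunits. In SMARCC1 the INM mean exceeded that of hESC by only 1e-04. INM replicate 2 was higher than INM replicate 1 in 7 of 9 subunits, with a median difference of 0.13 over the 9, against 0.01 over all genes. SMARCC2 and SMARCD3 were the subunits with the higher value in replicate 1.

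Exchange of alternative subunits was read as unequal change within an array, since levels of different probe sets cannot be set against each other. For each pair the log2 difference was taken on every array and expressed relative to its hESC mean. With 2 arrays a group, the smallest p of an exact two-sided permutation test is 0.33. SMARCA2 minus SMARCA4 stood at -0.07 and 0.07 on the hESC arrays, 0.88 and 1.70 on the INM arrays and 1.27 and 1.21 on the SMC arrays. Both later stages lay above hESC, by 1.29 in INM and 1.24 in SMC (exact permutation p = 0.33 each), and the INM arrays spanned the SMC arrays. The gain at day 4 was 1.70 without INM replicate 1 and 0.88 without INM replicate 2.

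SMARCD3 minus SMARCD1 stood at -9e-04 and 9e-04 on the hESC arrays, 0.38 and 0.09 on the INM arrays and 1.84 and 1.81 on the SMC arrays. The shift came between INM and SMC, at 1.59, and reached 1.82 between hESC and SMC (exact permutation p = 0.33 each), made up of a rise of SMARCD3 by 1.09 and a fall of SMARCD1 by 0.73. SMARCC2 minus SMARCC1 stood at 0.03 and -0.03 on the hESC arrays, -0.13 and -0.44 on the INM arrays and 0.43 and 0.66 on the SMC arrays. It was 0.54 higher in SMC than in hESC (exact permutation p = 0.33), through the lower SMARCC1, since SMARCC2 changed by -0.05.

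ARID2 minus ARID1A stood at -0.04 and 0.04 on the hESC arrays, 0.53 and 0.14 on the INM arrays and -0.57 and -0.78 on the SMC arrays. From INM to SMC ARID2 lost 1.01 against ARID1A (exact permutation p = 0.33). ARID1B minus ARID1A stood at 0.05 and -0.05 on the hESC arrays, -0.15 and -0.33 on the INM arrays and -0.33 and -0.10 on the SMC arrays. Its shifts from hESC were -0.24 in INM and -0.22 in SMC, and the INM and SMC arrays overlapped.

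**Figure D3:**
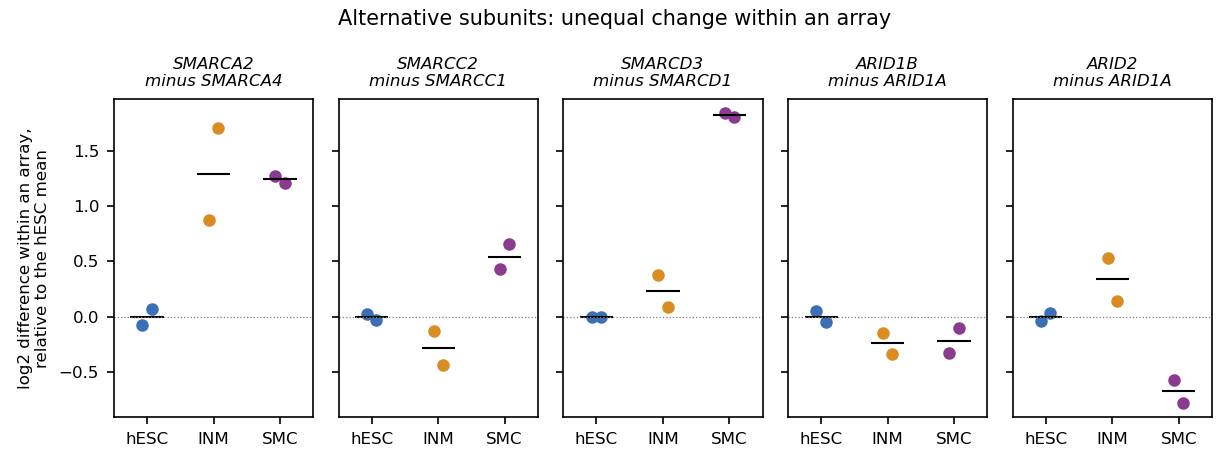
Log2 difference between alternative subunits on each array, relative to the hESC mean of that pair (y axis), in hESC, INM and SMC (x axis); points are arrays and lines are group means. SMARCA2 gains on SMARCA4 already in INM (0.88 and 1.70), SMARCD3 gains on SMARCD1 in SMC (1.84 and 1.81), and ARID1B stays within 0.33 of its start against ARID1A.

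The other 21 subunits of these complexes were all measured. In INM versus hESC 5 of 21 were called higher and 1 lower, against 18.9% and 14.8% of all genes. In SMC versus INM 0 were called higher by limma (0 at an unadjusted p under 0.05) and 4 lower, against 9.94% and 11.1%. In SMC versus hESC 3 were called higher and 2 lower, against 19.7% and 17.6%. The median log2 changes over the 21 were 0.14, -0.10 and 0.02. With median centring the first of these was 0.32, and that of the 9 listed subunits 0.51. With quantile normalization they were 0.25 and 0.23.

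Of the 3 PBAF partners of ARID2, 2 were called lower in SMC than in INM, where 11.1% of all genes were, and the change of the third, PHF10, was not called. PBRM1, a protein with many bromodomains that bind acetylated histones, read 9.07 and 9.12 on the hESC arrays, 9.46 and 9.69 on the INM arrays and 8.86 and 8.95 on the SMC arrays. The INM arrays were the highest, and PBRM1 rose by 0.47 (SE 0.13, adjusted p = 0.0297) and then fell by 0.67 (SE 0.13, adjusted p = 0.0136), in the same order as ARID2. The bromodomain gene BRD7 read 8.82 and 8.91 on the hESC arrays, 8.32 and 8.68 on the INM arrays and 7.87 and 7.75 on the SMC arrays. The 3 groups did not overlap (62.0% to 75.3% of all genes in a single comparison), in the order hESC, INM, SMC from high to low. BRD7 fell from INM to SMC by 0.69 (SE 0.15, adjusted p = 0.0207) and from hESC to SMC by 1.05 (SE 0.15, adjusted p = 0.00217). The change of PHF10 was -0.29 (SE 0.16, adjusted p = 0.247) in SMC versus INM. The rise of PBRM1 was not called on the 4 arrays of hESC and INM alone, or without hESC replicate 1, hESC replicate 2, INM replicate 2, SMC replicate 1 or SMC replicate 2 (adjusted p between 0.0541 and 0.142), and its fall was not called without SMC replicate 1 (0.112) or SMC replicate 2 (0.0857). The fall of BRD7 from INM to SMC was not called on the 4 arrays of INM and SMC alone, or without hESC replicate 1, hESC replicate 2, SMC replicate 1 or SMC replicate 2 (adjusted p between 0.0538 and 0.149), and that from hESC held in all 13 alternatives.

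In the noncanonical complex, which lacks ARID and SMARCB1 subunits, BRD9 fell from INM to SMC by 0.61 (SE 0.11, adjusted p = 0.0117), from 8.52 and 8.62 to 7.94 and 7.99, a call that ended without SMC replicate 1 (adjusted p = 0.101) or SMC replicate 2 (0.0877). Its partners BICRA and BICRAL were not called in any comparison.

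Of the canonical BAF subunits, DPF2, a reader of histone marks, read 10.70 and 10.75 on the hESC arrays, 11.57 and 11.32 on the INM arrays and 11.19 and 11.27 on the SMC arrays. All INM and SMC arrays lay above those of hESC, and DPF2 was higher by 0.72 in INM (SE 0.13, adjusted p = 0.00677) and by 0.50 in SMC (SE 0.13, adjusted p = 0.0220) than in hESC. The first call of DPF2 ended without hESC replicate 1 (adjusted p = 0.0550), and the second without any of the 4 hESC and SMC arrays (between 0.0862 and 0.134). Its paralog DPF1, known from neurons, read between 7.04 and 7.15 on all 6 arrays and was not called. DPF3, known from heart and muscle, read between 5.66 and 6.15 and was not called, and ACTL6B, the neuronal paralog of ACTL6A, read between 5.28 and 5.74. These values of ACTL6B lie in the range of the array medians of unnamed probe sets (5.04 to 5.65) or just above it, so a level above background is not shown. ACTL6A, SS18, SS18L1 and the core subunit SMARCB1 were not called in any comparison.

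Relative to DPF2 on the same array, PHF10 shifted by -0.69 in INM and -0.76 in SMC from hESC, and DPF1 by -0.74 and -0.42, while DPF2 itself rose. The shifts of SS18L1 against SS18 were -0.35 and -0.46. No shift is given for the pairs with ACTL6B or DPF3, whose signals lay near the median of unnamed probe sets.

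The shared subunits BCL7B and BCL7C were higher than in hESC at both later stages. BCL7B read 8.32 and 8.52 on the hESC arrays, 9.03 and 9.08 on the INM arrays and 9.04 and 9.16 on the SMC arrays, higher by 0.63 in INM (SE 0.12, adjusted p = 0.00978) and by 0.68 in SMC (SE 0.12, adjusted p = 0.00605) than in hESC. BCL7C was higher by 0.53 (SE 0.11, adjusted p = 0.0142) and by 0.47 (SE 0.11, adjusted p = 0.0188). BCL7A, the third member of that family, fell from INM to SMC by 0.48 (SE 0.12, adjusted p = 0.0354). SMARCE1, an HMG-box subunit, was higher in INM than in hESC by 0.64 (SE 0.17, adjusted p = 0.0300), with hESC arrays 0.39 apart. BCL11A, a zinc-finger protein that joins some BAF complexes, read 8.51 and 8.64 on the hESC arrays, 7.95 and 7.53 on the INM arrays and 7.95 and 8.15 on the SMC arrays. It was lower than in hESC by 0.84 in INM, a change of -0.84 (SE 0.17, adjusted p = 0.0107), and at -0.53 in SMC (SE 0.17, adjusted p = 0.0477). The SMC value of BCL11A was not called with median centring (-0.40, adjusted p = 0.103), with the replicate block (adjusted p = 0.0713) or without hESC replicate 1, hESC replicate 2, SMC replicate 1 or SMC replicate 2 (adjusted p between 0.109 and 0.240), and the INM value not without hESC replicate 1 (0.0570) or hESC replicate 2 (0.0741).

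Other calls of this group also ended in some alternatives. Their changes kept their sign in all 13, of which only the scalings and leaving out an array compared could alter a change. The rise of BCL7B to INM ended without hESC replicate 1 (adjusted p = 0.0720) and its rise to SMC without SMC replicate 2 (0.0586). The rise of BCL7C to INM ended without hESC replicate 1 (0.0602) or hESC replicate 2 (0.0856), and its rise to SMC without any of the 4 hESC and SMC arrays (between 0.0652 and 0.123). The fall of BCL7A ended with the replicate block (0.0533), on the 4 INM and SMC arrays alone and without any of the 4 hESC and SMC arrays (between 0.0784 and 0.221). The rise of SMARCE1 ended on the 4 hESC and INM arrays alone (0.0683) and without hESC replicate 1, INM replicate 2, SMC replicate 1 or SMC replicate 2 (between 0.0560 and 0.165). BCL11B and ACTB, the actin subunit that is also a cytoskeletal protein, were not called in any comparison.

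**Figure D4:**
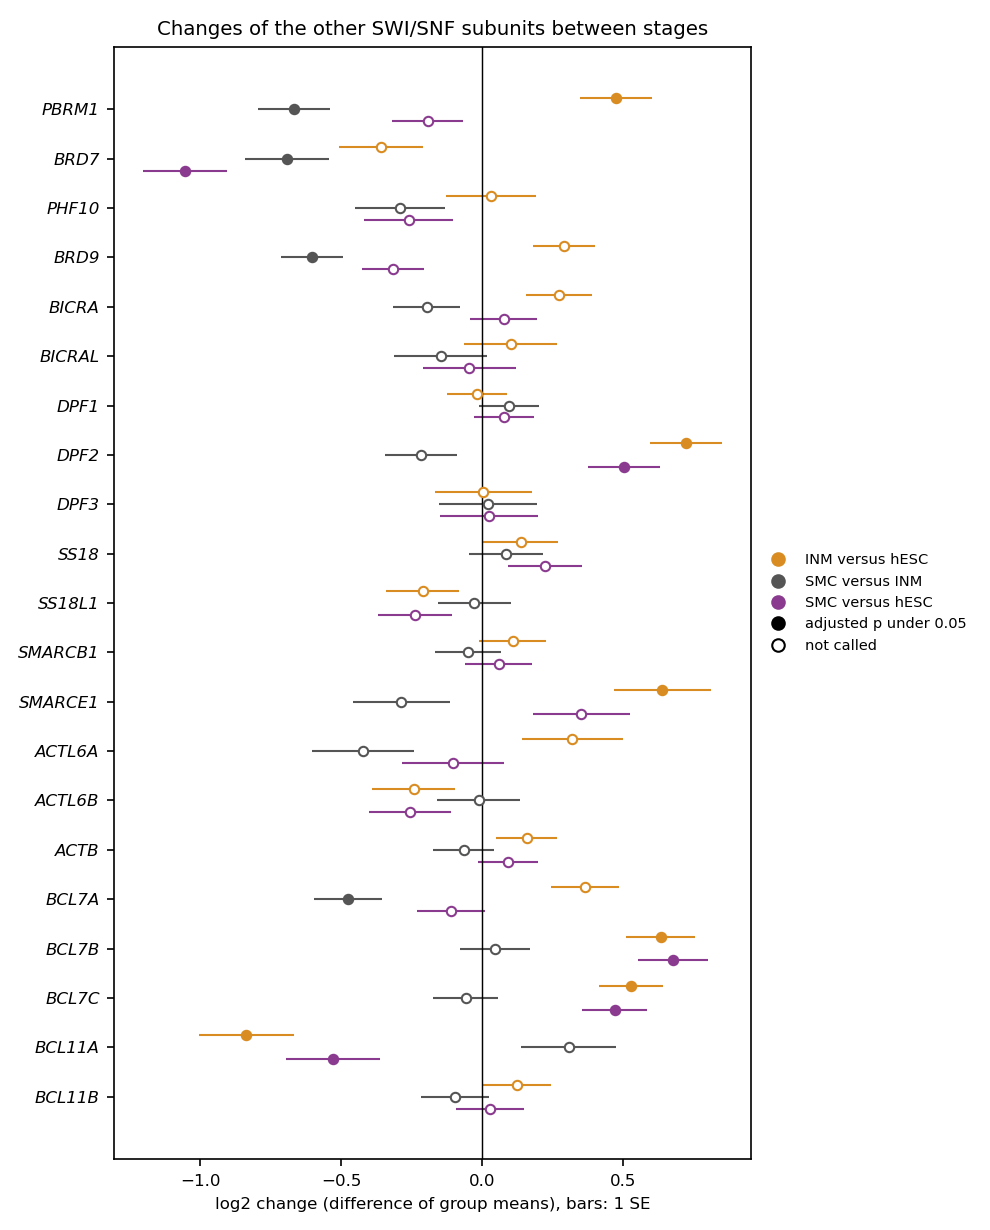
Log2 change with 1 SE (x axis) of the 21 other SWI/SNF subunits (y axis), from PBAF at the top to shared subunits at the bottom, in the 3 comparisons; filled points passed an adjusted p of 0.05 in limma. PBRM1, BRD7, BRD9 and BCL7A are called lower in SMC than in INM, and DPF2, BCL7B and BCL7C are called higher than hESC in both later stages.

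Over all 18417 genes, those with the closest profile over the 6 arrays, by Euclidean distance of values centred on each gene's mean, were named for 3 subunits. For SMARCA2 they were TMTC1 (distance 0.27), PRKD1 (0.32) and PPFIBP2 (0.33), and each of these also had the higher INM value in replicate 2. For SMARCA4 they were NAGPA, OLFML3 and TGM1, at distances between 0.07 and 0.09. For SMARCD3 they were ADAMTSL5 (0.06), SDF4 (0.11) and PHPT1 (0.12), with log2 changes of 1.10, 1.06 and 1.04 from hESC to SMC. With 6 arrays, such nearness describes these samples only.

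Other remodeller families are given for comparison, with no test between families. Their counts are to be read against the shares of all genes called higher and lower, which were 18.9% and 14.8% in INM versus hESC, 9.94% and 11.1% in SMC versus INM, and 19.7% and 17.6% in SMC versus hESC. Of 13 ISWI genes 3 were called higher and 2 lower in INM versus hESC, 0 and 6 in SMC versus INM (limma; 0 higher at an unadjusted p under 0.05), and 1 and 4 in SMC versus hESC. CECR2, a partner of ISWI ATPases, was lower in SMC than in hESC, at -2.77 (SE 0.12, adjusted p = 2.4e-05), and the ATPase SMARCA5 fell by 0.86 from INM to SMC, while BAZ2B and BAZ2A fell by 0.62 and 0.82 over that step. BAZ2A had been called higher in INM than in hESC, by 0.80, and differed by -0.02 between SMC and hESC. The other ISWI ATPase, SMARCA1, named after its values were seen, was called higher than in hESC by 0.68 in INM (adjusted p = 0.00563) and by 0.82 in SMC (adjusted p = 0.00214). Of 18 CHD and NuRD genes 6 were called higher and 1 lower in INM versus hESC, 0 and 4 in SMC versus INM (limma; 1 higher at an unadjusted p under 0.05), and 3 and 5 in SMC versus hESC. CHD7 rose by 0.80 and then fell by 1.65, the order also seen in ARID2, and CHD3 and CHD9 were higher in SMC than in hESC by 1.31 and 0.99, while CHD1 was lower, at -0.70. Of 17 measured genes of INO80, SRCAP and TIP60 complexes 0 were called higher in INM versus hESC (limma; 6 at an unadjusted p under 0.05) and 3 lower, 0 and 1 in SMC versus INM (limma; 0 higher at an unadjusted p under 0.05), and 1 and 4 in SMC versus hESC. YEATS4 fell by 1.08 from INM to SMC, and INO80D, RUVBL1 and ACTR5 were lower in SMC than in hESC, at -0.93, -0.73 and -0.53.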

How the data were processed

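Expression of 33297 probe sets on 6 arrays was deposited as log2 values. The submitters' processing notes name RMA and limma, and the deposited log2 scale was read from the values. No RMA setting, genome build or version was given in the sources used here. Gene names came from GEO's annotation of the platform (19460 with 1 gene symbol, 1754 with several, 12083 unnamed here), and symbols were updated by Entrez identifier to a RefSeq table of GRCh38.p14 (19429 matched). A gene with several probe sets was read from the one of highest mean signal. No low-signal filter was applied.

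All 6 arrays entered 1 model with a mean per group, in limma 3.58.1 in R 4.3.3 (lmFit, eBayes; 3 residual and 3.56 prior degrees of freedom, two-sided tests), checked on simulated data. Folds are ratios of RMA signals. The number of arrays limits the precision.

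The members, gene lists, pairs and naming rules (all listed subunits, other subunits called or paired, up to 4 genes of other families, 3 nearest profiles) were chosen with earlier results of these data known. Alternatives changed the scaling, filter, probe set, arrays fitted, block and variance trend. The filter, block, variance trend and leaving out an array of the group not compared can alter a p-value but not the change itself. Leaving out either array of that group gave the same fit as the compared arrays alone, so the alternatives are not all distinct. Replicate numbers were not used to pair the arrays in the main model. Same-numbered deviations correlated at 0.07, -0.12 and -0.07 between groups, which cannot show whether same-numbered arrays were handled together.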

Additional observations from a re-analysis of the deposited data

How the results depend on the processing

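Each of the 27 changes of the 9 listed subunits was recomputed under 13 alternatives. Of 351 values, 320 stayed on the same side of the threshold, 21 lost a call, 10 gained one and 0 calls reversed. The 13 alternatives are not all distinct. Leaving out either array of the group not compared gave the same fit as the compared arrays alone. Averaging probe sets left each change as it was, since each listed subunit has 1 probe set. The counts of values and of calls that held therefore include some fits more than once. Of 13 calls, 5 held in all alternatives: the 3 of ARID2 and those of SMARCD1 and SMARCD3 in SMC versus hESC. Of 15 calls of other subunits, 1 held in all (BRD7 in SMC versus hESC).

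With median centring 5 listed and 9 other subunits were called higher in INM versus hESC, as were 5097 of 18417 genes (3486 without it). In SMC versus hESC 1 other subunit was then called lower, as were 2303 genes (3234 without it). With quantile normalization 2 other subunits were called lower in INM versus hESC, as were 2109 genes (2731 without it). Under the same setting SMARCD3 minus SMARCD1 shifted by 0.43 in INM and 1.95 in SMC from hESC. On the 4 arrays compared, 3 other subunits were called higher in INM versus hESC, as were 2627 genes. In SMC versus INM 2 other subunits were then called lower, as were 1289 genes. With the replicate block 3 and 0 listed subunits were called higher and lower in INM versus hESC, as were 3274 and 2439 genes. In SMC versus INM these were 1 and 4 subunits, and 1604 and 1788 genes. For SMC versus hESC they were 2 and 3 subunits, and 3441 and 2988 genes. The counts of listed subunits were as without the block, and 1 other subunit was called lower in SMC versus hESC. A lone array is assumed to vary like the other groups. Leaving out an array also moved the number of calls over all genes. In SMC versus INM more genes were called without an INM array and fewer without an SMC array. Counts of subunits called in such fits are therefore not results about the subunits alone.

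Leaving out each array in turn gave, in INM versus hESC, 1 to 4 listed subunits higher and 0 to 1 lower (1, SMARCC2, without INM replicate 1), and 0 to 5 other subunits higher and 0 to 2 lower. In SMC versus INM it gave 0 to 1 listed subunit higher and 1 to 7 lower (7 without INM replicate 1), and 0 to 1 other subunit higher and 0 to 6 lower. In SMC versus hESC it gave 1 to 2 listed subunits higher, and 0 to 3 other subunits higher and 1 to 3 lower. The shift of SMARCA2 minus SMARCA4 ranged from 0.88 to 1.70 in INM versus hESC and from -0.46 to 0.37 in SMC versus INM, that of SMARCD3 minus SMARCD1 from 0.087 to 0.38 and from 1.44 to 1.73, and that of ARID2 minus ARID1A from 0.14 to 0.53 and from -1.21 to -0.82. The causes were not tested.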
